A study of Mus musculus with 6 samples.

Results

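The genes described here lie on mouse chromosome 16 between 57 Mb and 90.2 Mb of mm10, next to the segment that Ts1Cje cells carry in 3 copies, and are themselves expected in the usual 2 copies in both genotypes. Every protein-coding gene of the count table that starts in this interval of 33.2 Mb was taken, apart from App, Bach1, Pros1 and the mitochondrial genes Mrpl39 and Atp5j. This gave 130 genes out of 55487 in the table. RNA came from primitive macrophages, the first macrophages of the embryo, made from mouse embryonic stem cells by 12 days of culture with M-CSF, IL-3, SCF, VEGF, activin A, BMP-4 and FGF2. There were 3 libraries from Ts1Cje cells and 3 from wild-type cells, numbered as lots. The labels do not say whether lots are separate stem cell lines or repeated differentiations, so a p-value here reflects the spread among these 6 samples alone, and that spread may be technical. The labels give no copy number either, so the copy state of these genes is taken from what is known of the strain and was not measured.

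In Ts1Cje mice, used to model Down syndrome, the distal end of chromosome 16, from about Sod1 as far as Zbtb21, is present once more, joined to the end of chromosome 12. A gene in an extra copy usually gives more RNA, roughly in proportion to its copies, while its neighbours outside the extra piece should keep their level unless something acts on them in trans. Mouse chromosome 16 before Sod1 holds many genes whose human counterparts lie on the chromosome that is extra in Down syndrome. Among them are Nrip1, Usp25, Gabpa, Adamts1, Ltn1, Usp16, Cct8 and Tiam1, which all start at 76.29 Mb or beyond. The model leaves such genes without the extra copy that people with Down syndrome have. The study asked why microglia, which descend from primitive macrophages, are fewer in Ts1Cje embryos.

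Total counts ranged from 26146044 to 32658148 in Ts1Cje libraries and from 25484294 to 26372632 in wild-type libraries. Wild-type replicate 1 lay far from the rest, at 88.2 on a first principal component that held 37.8% of the variance, against -38.7 to 18.7 for the others. Levels in TPM are reads per unit of gene length, scaled to the same total in each library, as the authors deposited them. The summed level of 10 genes of mitosis was 82.05 TPM in wild-type replicate 1. It was 336.8 to 674.8 TPM in Ts1Cje libraries and 587.9 and 611.3 TPM in the other wild-type libraries. The 8 macrophage markers summed to 16570 to 33540 TPM in Ts1Cje and to 13920 to 32600 TPM in wild-type libraries. Markers of other cells were low by comparison. The sums were 5.12 to 35.9 TPM in Ts1Cje and 8.87 to 20.1 TPM in wild-type libraries for 10 mesenchymal genes, with Thy1 at 0. For 7 endothelial genes they were 15.6 to 32.6 TPM in Ts1Cje and 7.40 to 36.5 TPM in wild-type libraries, with Emcn at 0. For 6 epithelial genes they were 7.99 to 16.4 TPM in Ts1Cje libraries and 33.3, 0.484 and 0.358 TPM in wild-type replicates 1 to 3. The erythroid, megakaryocyte and mast cell list, nearly all of it Pf4, was the largest of the other lists, at 138 to 773 TPM. The 6 pluripotent genes summed to 1.41 to 2.27 TPM in Ts1Cje and to 0 TPM in wild-type libraries. These sums rest on few counts, the most being 30 for Dppa5a and 11 for Pou5f1 over all libraries, with Esrrb and Sox2 at 0.

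Most of the interval was silent in these macrophages. Of the 130 genes, 36 had at least 10 counts in at least 3 libraries, 27.7%, while 53.8% of all protein-coding genes of the table and 68.0% of the 75 protein-coding genes from Sod1 to Zbtb21 did. There were 94 genes below that level, of which 77 had 0 counts in all 6 libraries and 17 had a few. Many of the silent genes belong to 2 clustered families. The interval holds 25 olfactory receptor genes (Olfr), which encode odorant receptors of the nose, and 3 of these had counts, 25 in all. It holds 24 keratin-associated protein genes (Krtap), which encode hair proteins, and 1 had counts. All 36 expressed genes were among the 81 genes outside these 2 families. Genes within such families can share reads, and the sources used here do not say how reads matching several places were handled. Between Cct8 and Tiam1 lie 42 of the genes, Krtap genes for the most part, with 16 counts in all. Bach1, left out of the set, also lies there and was expressed.

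The other silent genes include synaptic and neuronal genes, such as Grik1, a glutamate receptor subunit, Gabrr3, a GABA receptor subunit, and Htr1f, a serotonin receptor, each at 0 counts. The claudins Cldn8 and Cldn17, proteins of epithelial tight junctions, and Adamts5, a protease of the matrix, were also at 0. The 17 genes with a few counts were uneven between libraries of a genotype. Vgll3, a cofactor of TEAD transcription factors, had 0, 8 and 0 counts in Ts1Cje replicates 1 to 3 and 30, 0 and 0 in wild-type replicates 1 to 3. Jam2, a junctional adhesion molecule, had 10, 2 and 0 counts in Ts1Cje and 4, 8 and 0 in wild-type replicates 1 to 3. Rbm11, an RNA-binding protein, had 2, 3 and 0 counts in Ts1Cje and 0, 4 and 14 in wild-type replicates 1 to 3. Robo1, a receptor for the guidance cue Slit, had 0, 9 and 0 counts in Ts1Cje and 8, 2 and 0 in wild-type replicates 1 to 3. Ncam2, a neural adhesion molecule, had 8, 0 and 0 counts in Ts1Cje and 0 in each wild-type library. Stx19 had 10, 0 and 0 counts in Ts1Cje and 2, 0 and 0 in wild-type replicates 1 to 3. The others, Tmem45a2, Col8a1, Olfr172, Olfr173, Olfr175, Csnka2ip, Pou1f1, Cadm2, Gm11146, Map3k7cl and Krtap13-1, had between 1 and 21 counts over all 6 libraries. At these counts no difference between the genotypes was detectable.

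Expressed and silent genes of the interval differed in the sequence around their start. The RefSeq promoters of GRCm38.p6, from 250 bases before to 50 bases after the start, were found for 32 of the 36 expressed genes and 78 of the 94 others. CpG dinucleotides, which are frequent at the starts of broadly expressed genes, had a median of 18.5 per 300 bases (3 to 54) at expressed genes and 2 (0 to 41) at the others, against 7 over 27025 genes. Median GC content was 58.2% at expressed and 40.5% at the other genes, against 52.7% over all. Motifs were sought in every listed promoter of a gene, while CpG and GC values are of the first listed. The letters TATAAA, the core of the TATA box, stood on either strand in promoters of 3 of the 32 expressed genes (9.38%) and 37 of the 78 others (47.4%), against 15.7% of all genes. At Tbc1d23, counted among the 3, they stood only in a later listed promoter. The letters CCGGAAGT, the motif of ETS factors such as Gabpa, stood in 6 of the 32 (18.8%) and 0 of the 78, against 4.31% of all genes. The 6 were Cct8, Usp16, Cggbp1, Nsun3, Tomm70a and 4930453N24Rik. CCAAT stood in 31.2% of the expressed and 38.5% of the other genes, against 41.1% of all, and GGGGCGGGG, a GC box, in 15.6%, 3.85% and 12.9%. These shares are descriptions, and a match is not a site of binding. All genes here include silent ones, and expressed genes elsewhere were not counted apart. The values of the expressed genes are thus not shown to be particular to this interval. Most of the 78 others are Olfr and Krtap genes, and neighbouring genes of 1 family share sequence. The CpG, GC and TATAAA values of the others therefore largely describe those families. Outside the Olfr genes, the Krtap genes and the genes lying among the latter, Pou1f1 was the only one of the others with TATAAA. CpG numbers of the others outside these stretches ran from 1 at Csnka2ip to 41 at Ncam2.

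A few promoters show the contrast, with matches to the 4 motifs on either strand in capitals. Cct8 and Usp16 are neighbours with the ETS letters close to the start, and Cct8 also has the GC box. Cggbp1 starts 344 bases from Zfp654 on the other strand and has the ETS letters and the CCAAT letters. Adamts1 is the abundant gene of the interval with a TATA box, and Krtap8-1 is a silent hair gene with a TATA box and few CpGs.
Cct8 (GRCm38.p6, chr16:87495820-87496119, minus strand): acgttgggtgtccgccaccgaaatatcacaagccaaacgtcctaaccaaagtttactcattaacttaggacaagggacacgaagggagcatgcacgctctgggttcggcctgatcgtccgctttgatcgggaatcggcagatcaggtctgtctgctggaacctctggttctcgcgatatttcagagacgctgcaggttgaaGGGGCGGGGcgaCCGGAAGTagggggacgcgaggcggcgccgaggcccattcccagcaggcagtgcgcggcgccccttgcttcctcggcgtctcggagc
Usp16 (chr16:87454735-87455034, plus strand): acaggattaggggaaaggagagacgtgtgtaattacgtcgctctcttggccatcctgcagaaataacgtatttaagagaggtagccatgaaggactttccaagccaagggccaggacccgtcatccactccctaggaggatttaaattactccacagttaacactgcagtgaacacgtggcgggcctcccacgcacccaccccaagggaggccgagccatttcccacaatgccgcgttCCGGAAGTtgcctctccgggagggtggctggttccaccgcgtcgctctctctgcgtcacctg
Cggbp1 (chr16:64851751-64852050, plus strand): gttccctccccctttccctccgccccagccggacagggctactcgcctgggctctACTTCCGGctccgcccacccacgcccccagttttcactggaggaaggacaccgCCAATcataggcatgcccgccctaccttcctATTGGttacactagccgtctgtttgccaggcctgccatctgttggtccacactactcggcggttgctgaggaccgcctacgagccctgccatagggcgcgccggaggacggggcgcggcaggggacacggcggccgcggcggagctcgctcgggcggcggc
Adamts1 (chr16:85803064-85803363, minus strand): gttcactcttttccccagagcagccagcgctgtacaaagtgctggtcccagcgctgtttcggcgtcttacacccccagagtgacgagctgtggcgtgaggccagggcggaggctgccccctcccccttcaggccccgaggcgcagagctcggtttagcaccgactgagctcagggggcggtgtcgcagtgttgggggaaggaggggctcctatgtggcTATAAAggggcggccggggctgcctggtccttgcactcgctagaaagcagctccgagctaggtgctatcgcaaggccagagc
Krtap8-1 (chr16:89487903-89488202, minus strand): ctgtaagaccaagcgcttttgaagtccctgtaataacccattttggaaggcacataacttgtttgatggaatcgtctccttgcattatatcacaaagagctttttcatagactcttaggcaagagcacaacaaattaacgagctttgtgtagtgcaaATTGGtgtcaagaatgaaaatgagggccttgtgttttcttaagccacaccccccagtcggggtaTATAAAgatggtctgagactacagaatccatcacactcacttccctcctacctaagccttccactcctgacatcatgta
These sequences hold 28 CpGs at Cct8, 17 at Usp16, 28 at Cggbp1, 18 at Adamts1 and 4 at Krtap8-1. A high CpG number alone did not go with expression at every gene, since Ncam2 has 41 and Rbm11 25.

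**Figure D1:**
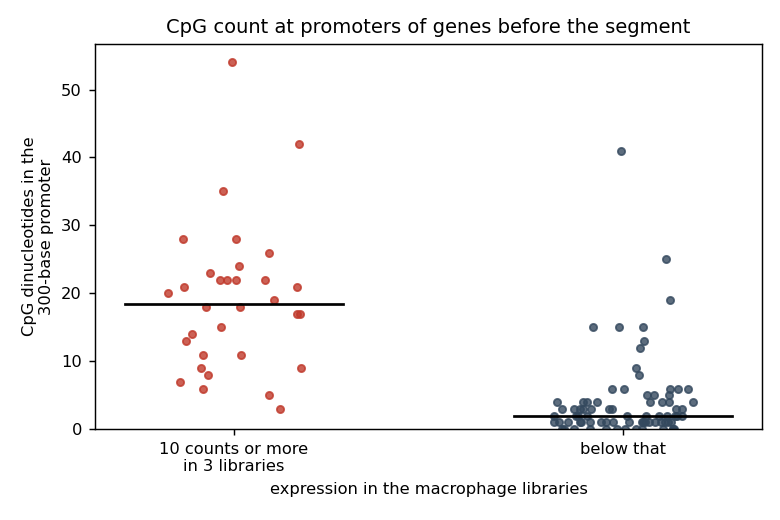
Number of CpG dinucleotides in the 300-base RefSeq promoter (vertical axis) of the 32 genes of the interval with 10 counts or more in 3 libraries (left) and of the 78 below that (right). Each point is a gene (its first listed promoter) and the bar is the median, 18.5 on the left and 2 on the right. Most genes on the right are Olfr and Krtap genes.

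The expressed genes had fold changes close to those of all genes. There were 35 genes tested, all the expressed ones but Cxadr. Their median log2 fold change (Ts1Cje over wild-type) was 0.07, a fold of 1.05, with quartiles of -0.12 and 0.25, and 21 values were positive and 14 negative. The same median was -0.01 over all 13821 genes tested (49.2% positive) and 0.01 over the 11698 protein-coding ones (51.3% positive). It was 0.04 over the 275 tested protein-coding genes of chromosome 16 before 57 Mb. Over the 51 tested genes from Sod1 to Zbtb21 it was 0.64, a fold of 1.55, with quartiles of 0.50 and 0.84 and 47 positive values. No test was run on these medians, since the genes were chosen with earlier results known.

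None of the 35 passed an adjusted p of 0.05 (edgeR quasi-likelihood test, Benjamini-Hochberg adjustment), where 1 gene of all 13821, 0.00724%, passed, and the smallest adjusted p among the 35 was 0.792. DESeq2 called 0 of them, where it called 0.406% of all genes. At an unadjusted p under 0.05 by edgeR, 0 were higher, against 2.99% of all genes, and 1, Nrip1, was lower, 2.86% against 2.80%. Every Ts1Cje library exceeded every wild-type library for 3 genes (8.57%, against 6.38% of all genes tested) and below for 1 (2.86%, against 5.72%). These shares lie near those of all genes. From Sod1 to Zbtb21, 32 of 51 genes had an unadjusted p under 0.05, all higher, and 33 of 51 lay above.

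The precision reached is given by the intervals. The median standard error of a log2 fold change was 0.20 over the 35 genes. For 21 of them the 95% interval lay wholly below 0.58, the log2 value of 3 copies over 2. This was 60.0%, against 47.0% of all genes tested and 51.9% of the protein-coding ones. For the other 14 of the 35 the interval held both 0 and 0.58. At this depth and number of libraries these 14 could not be placed at either value. From Sod1 to Zbtb21 the interval lay below 0.58 for 2 of 51 genes. Intervals wholly below 0.58 were had by Ltn1 (0.07 ± 0.13, SE), Gbe1 (0.07 ± 0.16) and Cggbp1 (-0.06 ± 0.16), among others.

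**Figure D2:**
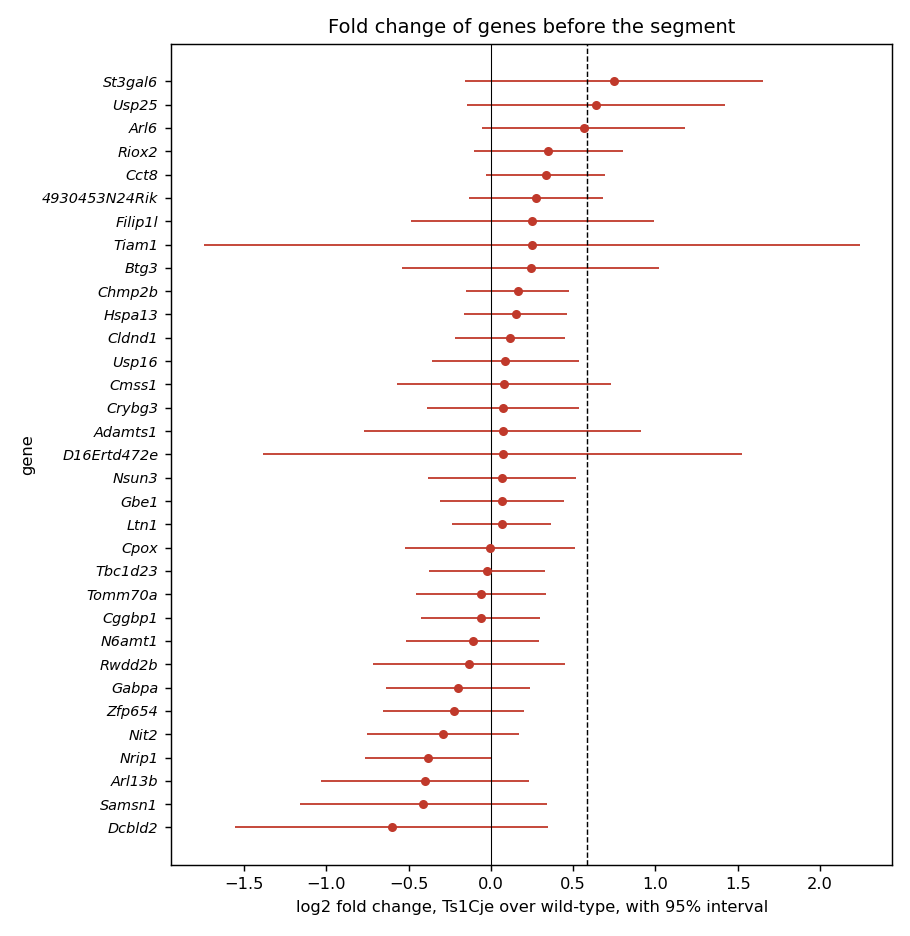
Log2 fold change (Ts1Cje over wild-type, horizontal axis) with its 95% interval for 33 of the 35 tested genes, sorted by value. The solid line marks 0 and the dashed line 0.58, the value of 3 copies over 2; the intervals of Epha3 and Robo2, which have few counts, are too wide to show.

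Along the chromosome the medians of successive stretches lay near 0, while single genes did not all do so. The median log2 fold change was 0.03 for the 18 tested genes from 57 to 65 Mb, 0.16 for 3 from 65 to 75 Mb, 0.07 for 7 from 75 to 85 Mb and 0.07 for 7 from 85 to 90.2 Mb. The last tested genes of the set before the upper limit were Rwdd2b at -0.13 ± 0.25 (SE), Usp16 at 0.09 ± 0.19, Cct8 at 0.33 ± 0.16 and Tiam1 at 0.25 ± 0.86. Bach1, left out of the set, lies between Cct8 and Tiam1 and was lower in Ts1Cje (unadjusted p under 0.05 by edgeR). The first tested genes beyond the upper limit were Sod1 at 0.52 ± 0.16, 20.8 kb past the limit, Scaf4 at 0.33 ± 0.15, Hunk at 0.59 ± 1.27 and Mis18a at 0.53 ± 0.28. Tiam1, an activator of the GTPase Rac, is the only tested one of these genes that starts beyond Cct8, and it was barely expressed. Its counts were 15, 5 and 20 in Ts1Cje replicates 1 to 3 and 6, 19 and 4 in wild-type replicates 1 to 3, so the groups overlapped. At the lower limit, Tfg, Senp7 and Trmt10c just outside had 0.00 ± 0.13, -0.28 ± 0.25 and 0.29 ± 0.14, and Tomm70a, Nit2 and Tbc1d23 just inside had -0.06 ± 0.17, -0.29 ± 0.20 and -0.02 ± 0.15 (SE).

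**Figure D3:**
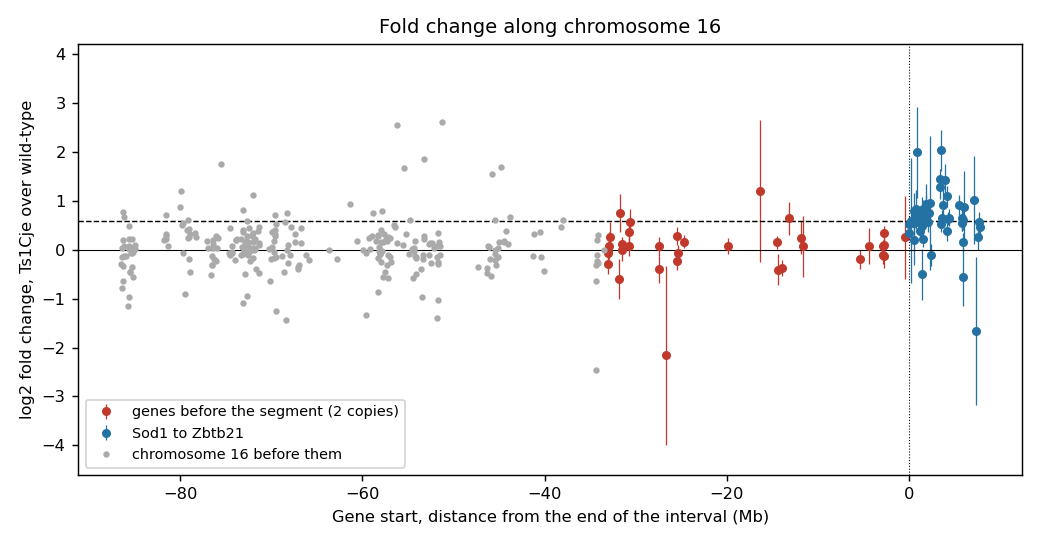
Log2 fold change (Ts1Cje over wild-type, vertical axis) of tested protein-coding genes of chromosome 16 against the distance of their start from the end of the interval in Mb. Red points are the genes of the interval and blue points those from Sod1 to Zbtb21, with standard errors; grey points are genes before 57 Mb; the dashed line is 0.58. The red points have a median of 0.07, with single genes such as Epha3 at -2.16 and Robo2 at 1.20, and the blue points a median of 0.64.

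Library by library, the genes as a group lay close to the wild-type mean. Their median level on the log2 CPM scale (counts scaled to library size with TMM factors), relative to the wild-type mean, was 0.14, -0.02 and 0.08 in Ts1Cje replicates 1 to 3 and -0.03, 0.07 and 0.01 in wild-type replicates 1 to 3, for the 33 genes with counts in every library. Ts1Cje replicate 2 thus lay below 2 of the wild-type libraries. For Sod1 to Zbtb21 the same medians were 0.67, 0.60 and 0.62 in Ts1Cje and 0.03, -0.07 and 0.01 in wild-type libraries. Together the 130 genes took 0.204%, 0.184% and 0.163% of all counts in Ts1Cje replicates 1 to 3 and 0.151%, 0.166% and 0.192% in wild-type replicates 1 to 3, and the groups overlapped.

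**Figure D4:**
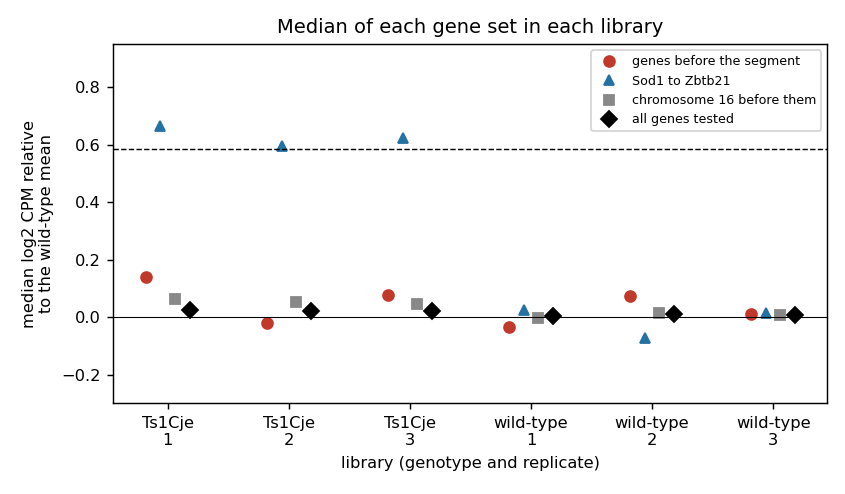
Median log2 CPM relative to the wild-type mean (vertical axis) in each of the 6 libraries for 4 gene sets. The genes before the segment (red circles) lie between -0.03 and 0.14 in every library, while those from Sod1 to Zbtb21 (blue triangles) lie between 0.60 and 0.67 in Ts1Cje libraries; the dashed line is 0.58.

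Transcription and chromatin genes numbered 6 tested, with 2 positive and 4 negative values and a median of -0.13. Nrip1 (chr16:76287400-76373827, minus strand) encodes a corepressor of nuclear receptors that is also a regulator of metabolic and inflammatory genes in macrophages. It stood at 37.2, 36.9 and 33.1 CPM in Ts1Cje replicates 1 to 3 and at 55.1, 43.6 and 41.2 CPM in wild-type replicates 1 to 3. All Ts1Cje libraries were thus lower than all wild-type libraries, with wild-type replicate 1 the highest. Its log2 fold change was -0.38 ± 0.16 (SE), with an unadjusted p of 0.0494 by edgeR and 0.0515 by DESeq2, and an adjusted p of 0.792 by edgeR, so the difference did not pass. Without wild-type replicate 1 it was -0.26, the value nearest to 0 of those with a library left out.

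Riox2 (chr16:59471775-59492461, plus strand) encodes an oxygenase that acts on ribosomal protein and histone. It stood at 29.4, 20.7 and 20.9 CPM in Ts1Cje replicates 1 to 3 and at 18.4, 18.6 and 18.7 CPM in wild-type replicates 1 to 3. The groups did not overlap, but the distance rests mainly on Ts1Cje replicate 1: the log2 fold change was 0.35 ± 0.20 (SE) with all libraries and 0.17 without that one. Riox2 shares 1185 exon bases with Crybg3 on the opposite strand, and since the sources used here do not give the strand setting of the counting, reads of the pair cannot be told apart there. Crybg3 had 0.07 ± 0.20 (SE).

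Gabpa, an ETS factor that drives many mitochondrial and housekeeping genes, stood at 57.7, 42.5 and 42.4 CPM in Ts1Cje replicates 1 to 3 and 45.7, 60.4 and 57.8 CPM in wild-type replicates 1 to 3, with overlapping groups (-0.20 ± 0.19, SE). Its start lies within the neighbour Atp5j, with which it shares 397 exon bases on the opposite strand. Cggbp1, a protein that binds CGG repeats, stood at 158.5, 131.5 and 114 CPM in Ts1Cje and 130, 148 and 144 CPM in wild-type replicates 1 to 3. Zfp654, a zinc finger gene that starts 344 bases from it in the other direction, stood at 15.9, 19.9 and 16.1 CPM in Ts1Cje and 19.6, 22.4 and 18.7 CPM in wild-type replicates 1 to 3. The pair did not share an order of libraries, since Ts1Cje replicate 1 was the highest of the 6 for Cggbp1 and the lowest for Zfp654. Their log2 fold changes were -0.06 ± 0.16 and -0.23 ± 0.18 (SE). Btg3, an antiproliferative gene, had 0.24 ± 0.34 and shares 695 exon bases with Cxadr on the opposite strand.

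Genes of ubiquitin and protein folding had 6 tested members, 5 positive and 1 negative, with a median of 0.12. Cct8 (chr16:87483326-87495873, minus strand) encodes a subunit of the chaperonin that folds actin and tubulin, and it has the highest TPM of the interval, 299 ± 40.6 in Ts1Cje and 238 ± 39.5 in wild-type libraries (SD, n = 3 each). It stood at 320, 324 and 280.5 CPM in Ts1Cje replicates 1 to 3 and at 214, 238 and 283 CPM in wild-type replicates 1 to 3. Wild-type replicate 3 reached into the Ts1Cje range. The log2 fold change was 0.33 ± 0.16 (SE; unadjusted p = 0.0668 by edgeR), and its 95% interval of -0.03 to 0.69 held both 0 and 0.58. Its 3′ end shares 192 exon bases with that of Usp16 on the opposite strand.

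Usp25 (chr16:77013706-77116780, plus strand), a deubiquitinase known for acting in innate immune signalling, had the widest ratio of highest to lowest wild-type library among the 6 genes with the highest CPM, though its wild-type coefficient of variation, 49.2%, was below the 55.4% of Adamts1. It stood at 153, 162 and 138 CPM in Ts1Cje replicates 1 to 3 and at 51.1, 93.3 and 146 CPM in wild-type replicates 1 to 3. The Ts1Cje libraries lay close together while the wild-type libraries spanned 2.86-fold, and wild-type replicate 3 fell within the Ts1Cje range. The log2 fold change was 0.64 ± 0.34 (SE; unadjusted p = 0.0955 by edgeR), 0.33 without wild-type replicate 1 and 1.07 without wild-type replicate 3. Wild-type replicate 1, the lowest, was also the library with the lowest sum of mitosis genes given above; the part of that in the result was not tested.

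The other folding and ubiquitin genes had values near 0. Usp16, which removes ubiquitin from histone H2A, stood at 63.4, 42.1 and 59.0 CPM in Ts1Cje and 57.01, 52.6 and 45.2 CPM in wild-type replicates 1 to 3 (0.09 ± 0.19, SE). Rwdd2b stood at 9.56, 8.38 and 6.38 CPM in Ts1Cje and 7.69, 9.61 and 9.36 CPM in wild-type replicates 1 to 3. In both genes the groups overlapped. Ltn1, the ubiquitin ligase that clears stalled nascent chains from ribosomes, had 0.07 ± 0.13, and Hspa13, an Hsp70-like ATPase, 0.15 ± 0.13 (SE), and their intervals lay below 0.58.

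Membrane traffic and cilia genes had 5 tested members, 2 positive and 3 negative, with a median of -0.02. Arl6 (chr16:59612949-59639391, minus strand) encodes a small GTPase that recruits the BBSome coat to cilia. It stood at 8.05, 7.97 and 8.90 CPM in Ts1Cje replicates 1 to 3 and at 4.21, 6.09 and 6.54 CPM in wild-type replicates 1 to 3. The groups did not overlap, and wild-type replicate 1 was the lowest. The log2 fold change was 0.56 ± 0.27 (SE; unadjusted p = 0.0679 by edgeR, adjusted p = 0.792), and 0.39 without wild-type replicate 1. Arl13b, another GTPase of cilia, stood at 10.3, 13.7 and 12.0 CPM in Ts1Cje and 18.2, 18.8 and 10.5 CPM in wild-type replicates 1 to 3. Its value was -0.40 ± 0.27 (SE), opposite in sign to Arl6, with wild-type replicate 3 among the Ts1Cje libraries.

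Chmp2b, a subunit of the ESCRT-III complex that cuts endosomal membranes, stood at 93.1, 109 and 115 CPM in Ts1Cje and 98.3, 87.9 and 96.9 CPM in wild-type replicates 1 to 3. Its log2 fold change was 0.16 ± 0.14 (SE), with an interval below 0.58, and it was the gene of the interval with the second highest TPM. Tomm70a, a receptor for protein import into mitochondria, stood at 102, 109 and 86.9 CPM in Ts1Cje and 124, 87.8 and 99.4 CPM in wild-type replicates 1 to 3 (-0.06 ± 0.17, SE). Tbc1d23, which tethers endosomal vesicles at the Golgi, had -0.02 ± 0.15. All 3 had overlapping groups.

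Metabolic genes had 4 tested members, 2 positive and 2 negative, with a median of 0.03. St3gal6 (chr16:58468125-58524243, minus strand), a sialyltransferase that caps glycans of selectin ligands, stood at 35.7, 20.3 and 16.6 CPM in Ts1Cje replicates 1 to 3 and at 10.9, 10.5 and 21.8 CPM in wild-type replicates 1 to 3. The values of each genotype spanned about the same fold, 2.16 in Ts1Cje and 2.06 in wild-type libraries, and wild-type replicate 3 lay within the Ts1Cje range. The log2 fold change was 0.75 ± 0.39 (SE; unadjusted p = 0.0924 by edgeR), 0.36 without Ts1Cje replicate 1 and 1.18 without wild-type replicate 3. St3gal6 shares 1603 exon bases with Dcbld2 on the opposite strand. Dcbld2, a neuropilin-like receptor, stood at 7.84, 5.77 and 3.96 CPM in Ts1Cje and 11.3, 4.75 and 10.7 CPM in wild-type replicates 1 to 3. It had a value of the other sign, -0.60 ± 0.41 (SE), and the reads of the pair cannot be told apart in the shared bases.

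Nit2, an amidase that breaks down alpha-keto acid amides, stood at 25.4, 17.95 and 20.97 CPM in Ts1Cje and 26.3, 29.8 and 22.6 CPM in wild-type replicates 1 to 3 (-0.29 ± 0.20, SE), and it shares 41 exon bases with Tomm70a on the opposite strand. Gbe1, the glycogen branching enzyme, had 0.07 ± 0.16 and Cpox, an enzyme of haem synthesis, -0.00 ± 0.22 (SE), each with an interval below 0.58.

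Adamts1 (chr16:85793827-85803113, minus strand), a secreted protease that cleaves matrix proteoglycans, was the only tested matrix gene of the interval. It stood at 298, 205 and 224 CPM in Ts1Cje replicates 1 to 3 and at 146, 168.5 and 377 CPM in wild-type replicates 1 to 3, so that wild-type libraries were both the lowest and the highest. The log2 fold change was 0.07 ± 0.36 (SE), 0.63 without wild-type replicate 3 and -0.18 without wild-type replicate 1. The sum of the 7 endothelial markers was 30.7, 32.6 and 15.6 TPM in Ts1Cje replicates 1 to 3 and 7.40, 16.2 and 36.5 TPM in wild-type replicates 1 to 3. Its extremes fell in the same libraries as those of Adamts1, but Ts1Cje replicate 2, next to the highest in the sum, was the lowest Ts1Cje library for Adamts1. Of the markers with the most TPM, Kdr was highest in Ts1Cje replicate 1, at 16.8 TPM, and Tie1 in Ts1Cje replicate 2, at 16.1 TPM. The mesenchymal sum was highest in Ts1Cje replicate 2, at 35.9 TPM. In bulk RNA a larger share of cells of a type and more RNA per cell cannot be told apart, and the part of these markers in the Adamts1 values was not tested.

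**Figure D5:**
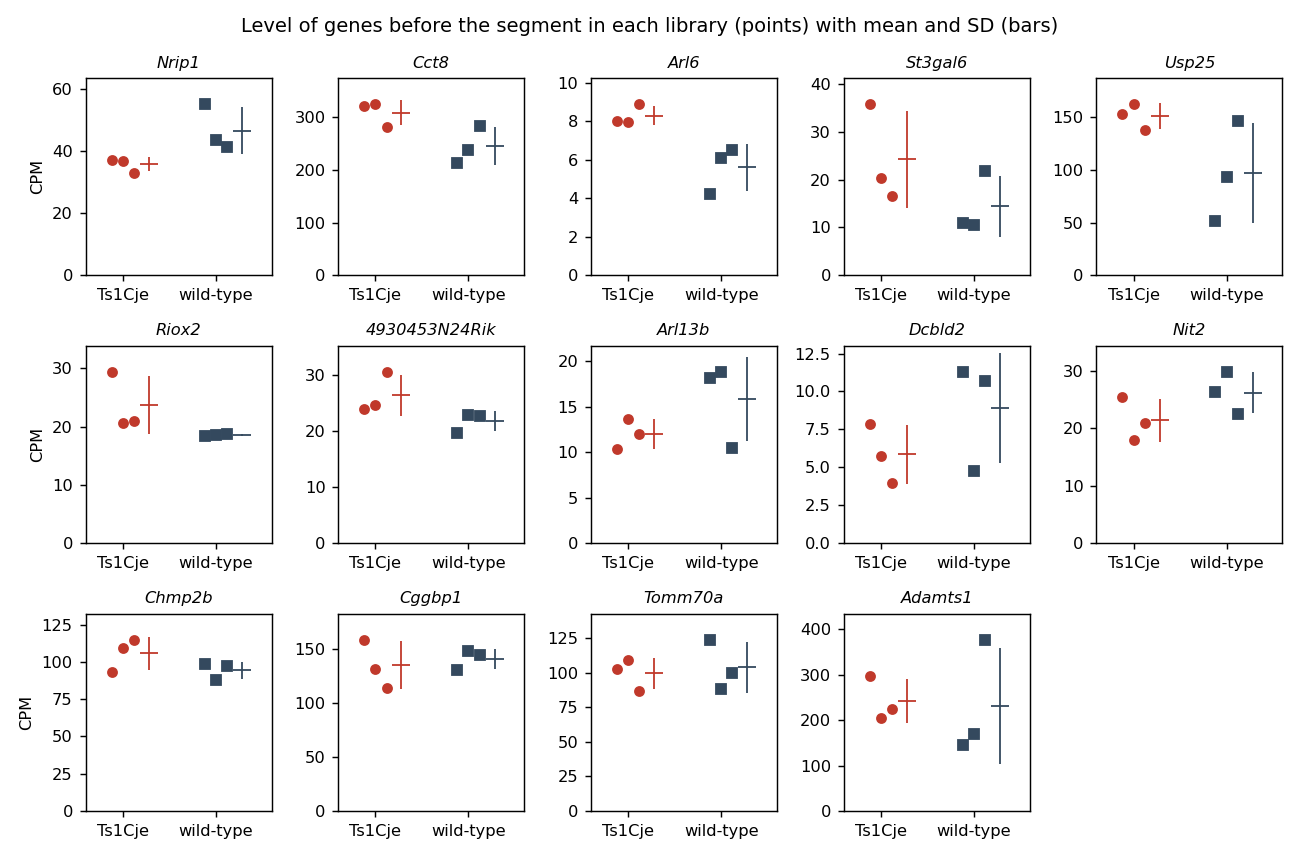
CPM (vertical axes, each starting at 0) in the 3 Ts1Cje (red circles) and 3 wild-type (dark squares) libraries for 14 genes of the interval, the 10 with the smallest p and the 6 with the highest mean CPM. Bars are means with SD. The groups do not overlap for Nrip1, Arl6, Riox2 and 4930453N24Rik, and wild-type libraries spread widely for Usp25 and Adamts1.

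Adhesion and guidance receptors were near the detection limit, apart from Cldnd1, a claudin-like membrane protein at 0.12 ± 0.14 (SE), and Dcbld2. Epha3, an ephrin receptor, had 0, 0 and 15 counts in Ts1Cje replicates 1 to 3 and 10, 0 and 51 in wild-type replicates 1 to 3. Robo2, a Slit receptor, had 16, 0 and 22 counts in Ts1Cje and 0, 10 and 4 in wild-type replicates 1 to 3. Cxadr, the coxsackievirus and adenovirus receptor, had 8, 29 and 10 counts in Ts1Cje and 34, 0 and 1 in wild-type replicates 1 to 3. Each of these 3 had libraries of both genotypes at or near 0, and no difference was detectable at this depth. Cxadr and Btg3 overlap on opposite strands, and the Btg3 total was 1306 counts against 82 for Cxadr.

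Among signalling genes 3 of 4 values were positive, with a median of 0.16. Samsn1, an adaptor of blood cells that dampens receptor signalling, had -0.41 ± 0.32 (SE), with 29.5, 35.1 and 19.8 CPM in Ts1Cje replicates 1 to 3 and 49.1, 40.6 and 22.6 CPM in wild-type replicates 1 to 3. Filip1l, a filamin-interacting protein, had 0.25 ± 0.32. RNA and methyltransferase genes had values near 0, with Nsun3, which methylates a mitochondrial tRNA, at 0.07 ± 0.19, N6amt1, which methylates a translation release factor, at -0.11 ± 0.17 and Cmss1 at 0.08 ± 0.28 (SE). Of the genes in no group, 4930453N24Rik stood at 23.9, 24.6 and 30.6 CPM in Ts1Cje and 19.7, 22.8 and 22.7 CPM in wild-type replicates 1 to 3. The groups did not overlap, by a margin smaller than the spread within either (0.28 ± 0.17, SE; unadjusted p = 0.154 by edgeR). D16Ertd472e had 0.07 ± 0.62.

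Counts of nominal calls depended on a single library. Without wild-type replicate 3, 9 of 36 tested genes had an unadjusted p under 0.05 by edgeR, against 16.1% of all 14620 genes tested then. These were St3gal6, Arl6, Usp25, Btg3, Adamts1 and Cct8, higher in Ts1Cje, and Arl13b, Samsn1 and Nrip1, lower. None passed an adjusted p of 0.05, the smallest being 0.17 for Usp25. With any other single library left out the count was 0, except for 1, Dcbld2 (lower), without wild-type replicate 2. The median coefficient of variation was similar in the 2 genotypes for these genes, 13.9% in Ts1Cje and 14.5% in wild-type libraries over 33 genes. Over all genes tested it was 17.0% and 23.2%. Gene by gene, wild-type libraries had the wider spread for 20 of the 33 (60.6%), against 64.5% over all genes tested.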

How the data were processed

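RNA was sequenced from 6 cultures, 3 Ts1Cje and 3 wild-type. Per the submitters' processing notes, FastQC 0.11.7, Trimmomatic 0.38, HISAT2 2.1.0 and featureCounts 1.6.3 were used with mm10. The authors deposited raw counts per gene and TPM (scaled for gene length and library total), 1 column per library; annotation and strand settings are not given in the sources used here. TPM served for levels between genes and marker sums, counts for all tests.

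Genes with filterByExpr (count minimum 10, total minimum 15) were fitted with edgeR 4.0.16 in R 4.3.3 (TMM factors, genotype alone, quasi-likelihood test, Benjamini-Hochberg over 13821 genes). The standard error is the log2 fold change divided by the root of F, and 95% intervals use its t quantile. Alternatives used DESeq2 1.42.0, limma 3.58.1, each library left out, a block for the replicate number, and other scalings and filters. Exon overlaps came from GENCODE M21, in which 129 of the 130 genes have the same start and end, and promoters from RefSeq. Members, lists and tests were chosen with earlier results of these data known. All expressed genes of the interval are named, and values in each library are given for the 10 with the smallest p, the 6 with the highest CPM, the 4 nearest the segment and the genes of a printed shared promoter. Genes outside this rule (those with few counts, Gabpa and Samsn1) were chosen after their values were seen. Markers were read from fixed lists. The pluripotent list summed to 1.41 to 2.27 TPM in Ts1Cje and 0 TPM in wild-type libraries, on few counts. The neural list summed to 9.83 to 35.3 TPM in Ts1Cje and 12.3 to 28.3 TPM in wild-type libraries, nearly all of it Nes. The list of erythroid, megakaryocyte and mast cell genes summed to 189 to 626 TPM in Ts1Cje and 138 to 773 TPM in wild-type libraries, nearly all of it Pf4. Counting error is the only error that depth covers, since reads copied by PCR are not independent molecules.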

Additional observations from a re-analysis of the deposited data

How the results depend on the processing

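The median log2 fold change of the 35 genes, 0.07, moved by less than the spread between libraries under every alternative run, and lay between 0.01 and 0.13 with each library left out in turn. No gene of the interval passed an adjusted p of 0.05 under any of them. The number with an unadjusted p under 0.05, 1 as reported, was 0 with TMM factors computed without chromosome 16, with DESeq2, with limma-voom and with the replicate number as a block. With no filter it was 2, St3gal6 and Usp25, both higher in Ts1Cje, and Nrip1, the lower gene reported, was no longer among them. On log2(TPM + 1) and on log2(TPM + 0.1) it was 1, Arl6, higher, again without Nrip1. With the excluded genes added back it was 2, Nrip1 and Bach1, both lower. With each library left out it was 0 to 9. The number whose groups do not overlap, 4 as reported, was 6 to 12 with a library left out, where groups of 2 and 3 overlap less easily. The median from Sod1 to Zbtb21 was 0.56 on log2(TPM + 1) and 0.58 to 0.65 with each library left out. The median before 57 Mb was 0.0227 with 50 counts in 3 libraries, 0.0469 with limma-voom, 0.0487 with the replicate block and 0.0282 to 0.0539 with each library left out. Of 557 values of single genes under the alternatives, 526 kept their sign; 31, in 14 genes, did not, and the cause was not tested. With each library left out, the log2 fold change ran for Adamts1 from -0.18 to 0.63, Cggbp1 from -0.19 to 0.0361, Cmss1 from -0.0517 to 0.21, Cpox from -0.12 to 0.15, Crybg3 from -0.0713 to 0.28, D16Ertd472e from -0.32 to 0.52, Gbe1 from -0.0415 to 0.15. It ran for Ltn1 from -0.0138 to 0.12, Nsun3 from -0.12 to 0.22, Rwdd2b from -0.27 to 0.00660, Tbc1d23 from -0.12 to 0.0298, Tiam1 from -0.22 to 1.13, Tomm70a from -0.18 to 0.0772, Usp16 from -0.0262 to 0.25. Cpox had 0.0046 with no filter, 0.0080 with limma-voom and 0.0041 with the replicate block. D16Ertd472e had -0.14 with limma-voom, -0.0337 on log2(TPM + 1), -0.17 on log2(TPM + 0.1) and -0.14 with the replicate block. Deviations from the group means had correlations of -0.18, -0.05 and -0.06 between samples with the same lot number. Between samples with unlike numbers they ran from -0.11 to 0.17. With 3 libraries a group these values cannot show whether lots were shared, and the numbers were not taken as pairs in the main fit. The median of the 35 genes with the replicate block was 0.07.

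With 3 libraries a group and a median standard error of 0.20, a change smaller than that of an extra copy could not be placed for many genes. Genes with under 100 counts in all allow no comparison. Opposite-strand partners with more counts limit Riox2, Dcbld2, Gabpa, Usp16, Nit2 and Cxadr.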
